A study of Mus musculus with 18 samples.

Results

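The airway cytochrome P450 enzymes are haem proteins of the endoplasmic reticulum that oxidise inhaled and circulating chemicals. Members were chosen by gene symbol, from a list of 8 genes drawn up for lung P450 metabolism: Cyp2f2, Cyp2b10, Cyp4b1, Cyp2e1, Cyp1a1, Cyp1b1, Cyp2s1 and Por, which encodes the reductase that hands electrons to P450 enzymes. Of these 8 genes, 7 were matched to a probe set, each to a single one, among 19938 genes measured; Por was not analysed here. The arrays also measured 75 other P450 genes. A P450 enzyme inserts an oxygen atom into its substrate with electrons supplied by a reductase or by cytochrome b5. Club cells, the secretory cells of the small airways, carry Cyp2f2 at a high level, and this enzyme turns naphthalene into a reactive epoxide that injures the same cells. The epoxide is disposed of by epoxide hydrolase and by conjugation to glutathione.

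The study measured total RNA from terminal bronchiolar epithelial cells of mouse lung on 18 Affymetrix arrays. All mice were of a mixed FVB/N and C57BL/6 strain, and all groups carry the label naphthalene injury, with durations of 0, 3 or 72 hr. Each duration was represented by 3 arrays of control mice and 3 of Cebpa d/d mice, which makes 6 groups. Cebpa encodes C/EBP alpha, a transcription factor of the differentiated airway and alveolar epithelium. The labels give neither the promoter nor the part of the gene that the d/d allele changes, and age was not given in the sources used here. The series title names C/EBP alpha, the balance of proteases and their inhibitors, and recovery of bronchiolar cells. Values are RMA levels on a log2 scale, on which a difference of 1 is a 2-fold change. The labels number the replicates without saying whether each was a different mouse. A p-value here therefore reflects how far arrays scatter within their groups, pooled over all 6 groups, and part of that scatter may be technical. In bulk RNA, fewer cells of a type and less RNA per cell cannot be told apart.

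Array medians lay between 6.48 and 6.65, and arrays of a group correlated at 0.973 to 0.992 over probe sets. Cebpa itself was 7.89, 10.07 and 10.17 in control arrays at 0 hr, against 8.27, 8.11 and 7.83 in Cebpa d/d arrays. The library labelled control 0 hr replicate 1 thus lay inside the Cebpa d/d range, whereas the other 8 control arrays (9.69 to 10.52) lay above every Cebpa d/d array (7.83 to 9.07). Across genotypes, the mean of the 3 times gave a Cebpa log2 difference (d/d minus control) of -1.58 ± 0.24 (SE, limma, adjusted p = 0.00953). The highest Cebpa d/d value, 9.07, was Cebpa d/d 72 hr replicate 1, and that array stood apart in several P450 genes. Transcripts of Xist were present in 3 of 3 arrays of both 72 hr groups and in 1 of 3 arrays of every other group, so sex moved with the 72 hr time point. The labelled cell type was matched by high levels of Scgb1a1, the main club cell secretory protein, at 12.55 to 12.98 in all arrays. Markers of other lung cells also averaged above the array medians. Alveolar type 2 markers averaged 9.59 to 10.54, smooth muscle markers 9.89 to 10.78 and endothelial markers 8.36 to 9.34. Cardiac muscle markers averaged 10.46 to 11.36 in Cebpa d/d 0 hr arrays and 7.82 to 9.68 in the other groups. Hepatocyte markers averaged 4.85 to 5.16 in every array, below each array's median.

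Sequence immediately upstream of the start site is shown for Cyp2f2, and for Cyp2b10, Cyp1a1 and Cyp1b1, the members in which a searched motif occurred. Both motifs occurred in Cyp2b10. Each run is the 250 bases before the RefSeq start (assembly GRCm38.p6), written 5′ to 3′ on the gene's strand, and 7 of 7 members matched an entry. Capitals mark GCGTG, the core of the site bound by the aryl hydrocarbon (Ah) receptor with ARNT, and TTNNGNAA, the form of a C/EBP site, each searched on both strands, so that some capitals spell the reverse complement; the 2 motifs overlapped in none of these genes.
Cyp2f2, chr7:27119705-27119954, plus strand: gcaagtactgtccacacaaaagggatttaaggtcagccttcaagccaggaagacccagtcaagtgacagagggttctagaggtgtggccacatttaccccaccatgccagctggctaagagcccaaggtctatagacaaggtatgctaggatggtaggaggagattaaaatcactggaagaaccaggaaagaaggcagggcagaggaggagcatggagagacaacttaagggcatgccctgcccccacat
Cyp2b10, chr7:25897408-25897657, plus strand: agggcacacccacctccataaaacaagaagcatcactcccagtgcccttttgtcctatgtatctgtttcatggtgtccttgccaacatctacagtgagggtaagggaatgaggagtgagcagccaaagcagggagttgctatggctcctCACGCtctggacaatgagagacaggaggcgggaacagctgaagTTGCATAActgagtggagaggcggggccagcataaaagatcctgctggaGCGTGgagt
Cyp1a1, chr9:57697363-57697612, plus strand: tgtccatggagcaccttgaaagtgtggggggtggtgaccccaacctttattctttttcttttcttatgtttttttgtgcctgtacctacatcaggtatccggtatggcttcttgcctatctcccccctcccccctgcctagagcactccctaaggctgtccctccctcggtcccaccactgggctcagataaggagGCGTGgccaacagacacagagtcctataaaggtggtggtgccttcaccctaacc
Cyp1b1, chr17:79715062-79715311, minus strand: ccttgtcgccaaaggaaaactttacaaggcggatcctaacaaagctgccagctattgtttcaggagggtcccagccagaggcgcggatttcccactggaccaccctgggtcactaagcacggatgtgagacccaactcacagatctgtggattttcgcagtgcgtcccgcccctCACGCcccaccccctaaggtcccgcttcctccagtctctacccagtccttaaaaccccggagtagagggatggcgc
The Ah receptor core began at -54 in Cyp1a1, at -76 in Cyp1b1 and at -101 and -9 in Cyp2b10, counted from the start site. It was present in 28.2% of 32851 mouse upstream windows of the same length. The C/EBP form began at -58 in Cyp2b10, and 36.8% of all windows held it. Neither run of letters was found in the windows of Cyp2f2, Cyp4b1, Cyp2s1 and Cyp2e1. A match is a description of the letters and not a measured binding site.

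Between 0 and 72 hr the P450 genes of the control airway moved in opposite directions. Cyp2f2, Cyp4b1 and Cyp1a1 fell and Cyp2e1 rose, which made 4 of 7 members, against 7.15% of all genes (limma, adjusted p under 0.05 over all genes, here and below). From 3 to 72 hr 4 of 7 again passed: Cyp2f2 fell, and Cyp2b10, Cyp2s1 and Cyp2e1 rose, against 19.7% of all genes. Before that, from 0 to 3 hr, Cyp1a1 alone fell, with 3.50% of all genes passing. In Cebpa d/d mice Cyp1a1 fell and Cyp2s1 rose from 0 to 72 hr (2 of 7, against 4.80%), and Cyp2f2 fell and Cyp2e1 rose from 3 to 72 hr (2 of 7, against 8.55%). From 0 to 3 hr in Cebpa d/d mice 0 of 7 passed in limma, where 4.38% of all genes did; 1 of 7 had an unadjusted p under 0.05, as had 17.2% of all genes. The 72 hr comparisons of a genotype share their 72 hr arrays, and the 0 hr comparisons share their 0 hr arrays. The median difference of the 7 members was -0.61 from 0 to 72 hr in control and -0.41 in Cebpa d/d mice, where that of all genes was -0.02 in each.

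**Figure D1:**
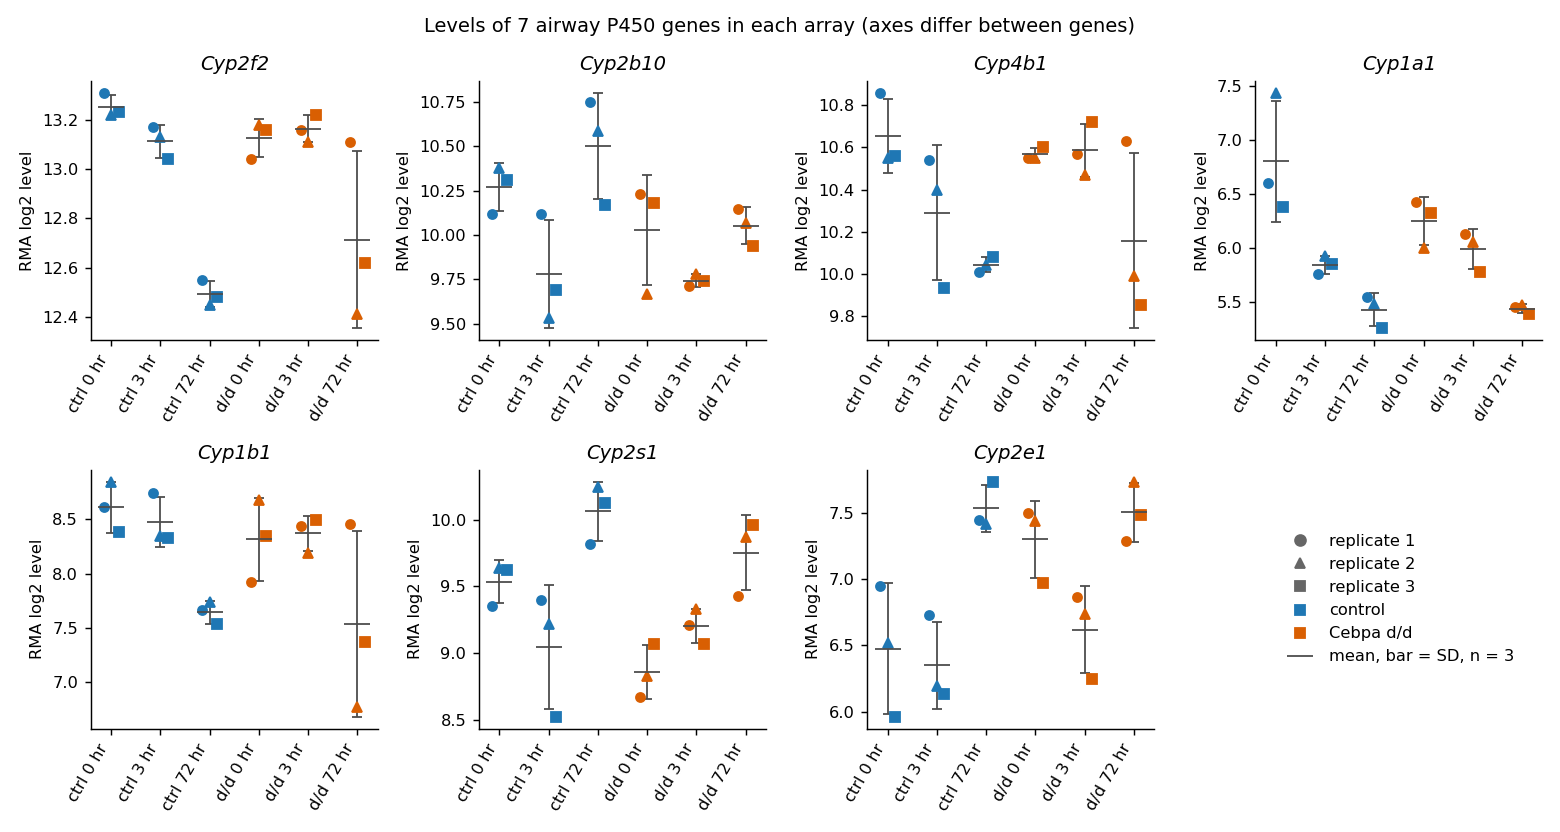
RMA log2 level of each P450 gene (y axis, a separate scale per gene) in the 18 arrays, by group on the x axis; symbols are arrays, the line is the mean and the bar the SD of 3 arrays. Cyp2f2 in control mice drops from 13.22 to 13.31 at 0 hr to 12.45 to 12.55 at 72 hr, and replicate 1 of Cebpa d/d at 72 hr stays at 13.11.

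Cyp2f2, the enzyme that activates naphthalene in club cells, averaged 12.98 over all arrays and fell by 72 hr in control mice. In control mice it read 13.31, 13.22 and 13.23 at 0 hr, 13.17, 13.13 and 13.04 at 3 hr, and 12.55, 12.45 and 12.48 at 72 hr. The 72 hr arrays lay below every earlier array, and the fall of 0.76 ± 0.12 (3 arrays against 3) from 0 hr was 1.69-fold (adjusted p = 0.00182). The SE comes from the spread pooled over all 6 groups. The SD was 0.05 and 0.06 in these control groups and 0.36 in Cebpa d/d 72 hr arrays. Against 3 hr the difference was -0.62 ± 0.12 (adjusted p = 0.00259). The Cebpa d/d arrays of Cyp2f2 read 13.04, 13.18 and 13.16 at 0 hr, 13.16, 13.11 and 13.22 at 3 hr, and 13.11, 12.41 and 12.62 at 72 hr. Replicates 2 and 3 at 72 hr lay at the level of the control arrays of that time, and replicate 1 lay among the 0 and 3 hr arrays. The difference from 0 hr was -0.42 ± 0.12 (adjusted p = 0.0681) with all arrays and -0.61 ± 0.09 (adjusted p = 0.00051) without that array. From 3 hr Cyp2f2 fell by 0.45 ± 0.12 (adjusted p = 0.0325), or by 0.65 ± 0.09 (adjusted p = 0.000265) without it. The call from 3 hr with all arrays was lost with sex as a covariate (adjusted p = 0.114), with only the compared groups in the fit (adjusted p = 0.146) and when any of 5 Cebpa d/d arrays was left out (each of 3 hr, and replicates 2 and 3 of 72 hr), with an adjusted p of up to 0.18. In order of their means the groups ran control 0 hr (13.25), Cebpa d/d 3 hr (13.16), Cebpa d/d 0 hr (13.13), control 3 hr (13.12), Cebpa d/d 72 hr (12.71) and control 72 hr (12.49). All neighbours in this order overlapped, the first pair only at 13.22.

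Cyp4b1, which oxidises fatty acids and activates furans and aromatic amines in lung, fell in control mice as well. Its control arrays read 10.86, 10.55 and 10.56 at 0 hr, 10.54, 10.40 and 9.93 at 3 hr, and 10.01, 10.04 and 10.08 at 72 hr. The 0 and 72 hr groups did not overlap, and Cyp4b1 fell by 0.61 ± 0.17 (adjusted p = 0.0399), a 1.53-fold change. This call was lost with sex as a covariate (adjusted p = 0.12) and when any of 9 arrays was left out (each control array of 0 and 72 hr, Cebpa d/d 0 hr replicates 1 and 2, and Cebpa d/d 3 hr replicate 1), with an adjusted p of up to 0.119. Its Cebpa d/d arrays read 10.55, 10.55 and 10.60 at 0 hr, 10.57, 10.47 and 10.72 at 3 hr, and 10.63, 9.99 and 9.85 at 72 hr. Again replicate 1 at 72 hr was as high as the earlier arrays, and the other 2 were lower. The 72 hr minus 0 hr difference was -0.41 ± 0.17 (adjusted p = 0.216), and -0.64 ± 0.15 (adjusted p = 0.0145) without replicate 1. Its group means ran from 10.66 in control 0 hr arrays to 10.04 in control 72 hr arrays, and neighbours in that order overlapped except Cebpa d/d 0 hr (10.55 to 10.60) and control 3 hr (9.93 to 10.54).

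Cyp2b10, a mouse CYP2B enzyme that is present in lung and inducible in liver through the receptor CAR, rose from 3 to 72 hr in control mice. In control mice it read 10.12, 10.38 and 10.31 at 0 hr, 10.12, 9.53 and 9.69 at 3 hr, and 10.75, 10.59 and 10.17 at 72 hr. Every 72 hr array lay above every 3 hr array, and Cyp2b10 rose by 0.73 ± 0.17 (adjusted p = 0.00727) between these times. The 3 hr minus 0 hr difference was -0.49 ± 0.17 (adjusted p = 0.114), and -0.66 ± 0.17 (adjusted p = 0.029) without control 3 hr replicate 1. Its Cebpa d/d arrays read 10.23, 9.67 and 10.18 at 0 hr, 9.71, 9.78 and 9.74 at 3 hr, and 10.15, 10.07 and 9.94 at 72 hr. The 72 hr arrays again lay above the 3 hr arrays, by 0.31 ± 0.17 (adjusted p = 0.323), which did not pass. The group means ran from 10.51 in control 72 hr arrays to 9.74 in Cebpa d/d 3 hr arrays, with overlap between all neighbours.

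Cyp2e1, which oxidises ethanol and small solvents and has a minor part in naphthalene metabolism, rose. Control arrays read 6.95, 6.52 and 5.96 at 0 hr, 6.73, 6.19 and 6.13 at 3 hr, and 7.45, 7.42 and 7.74 at 72 hr. All 72 hr arrays lay above all earlier control arrays: the rise was 1.06 ± 0.23 from 0 hr (2.08-fold, adjusted p = 0.011) and 1.19 ± 0.23 from 3 hr (adjusted p = 0.00229). The first of these had an adjusted p of 0.0548 without control 0 hr replicate 3 and 0.0522 without control 72 hr replicate 3. Cebpa d/d arrays read 7.50, 7.44 and 6.97 at 0 hr, 6.87, 6.74 and 6.25 at 3 hr, and 7.29, 7.74 and 7.49 at 72 hr. Here the 0 hr arrays were already near the 72 hr level, and the 72 hr minus 0 hr difference was 0.20 ± 0.23 (adjusted p = 0.732). From 3 hr Cyp2e1 rose by 0.89 ± 0.23 (adjusted p = 0.0258). Leaving out the Cebpa d/d array of 3 hr replicate 3 ended that call (adjusted p = 0.134), as did leaving out replicate 2 or replicate 3 of 72 hr (adjusted p = 0.121 and 0.0752). The means of control 72 hr (7.54), Cebpa d/d 72 hr (7.51) and Cebpa d/d 0 hr (7.30) lay above Cebpa d/d 3 hr (6.62), control 0 hr (6.48) and control 3 hr (6.35), and neighbours in that order overlapped except between 7.30 and 6.62.

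Cyp1a1, the classical Ah receptor target that oxidises polycyclic aromatic hydrocarbons, fell in both genotypes. Control arrays read 6.60, 7.44 and 6.38 at 0 hr, 5.76, 5.93 and 5.85 at 3 hr, and 5.55, 5.48 and 5.26 at 72 hr, so that the 3 times did not overlap. The fall was 0.96 ± 0.20 by 3 hr (1.95-fold, adjusted p = 0.0147) and 1.38 ± 0.20 by 72 hr (2.60-fold, adjusted p = 0.000714). The 3 hr call was lost without control 3 hr replicate 3 (adjusted p = 0.0516) and when only the 2 groups entered the fit (adjusted p = 0.169), whereas the 72 hr call held under all alternatives that tested the gene. The Cebpa d/d arrays read 6.43, 6.00 and 6.33 at 0 hr, 6.13, 6.06 and 5.78 at 3 hr, and 5.46, 5.47 and 5.39 at 72 hr. All 72 hr arrays were low, replicate 1 included, and Cyp1a1 fell by 0.81 ± 0.20 from 0 hr (1.76-fold, adjusted p = 0.0213). With sex as a covariate the adjusted p was 0.0779, and it was up to 0.0944 when Cebpa d/d 0 hr replicate 1 or 3 or 72 hr replicate 2 or 3 was left out. The level of Cyp1a1 is low: 29.1% of genes had a lower mean. In the order of means, control 0 hr (6.81) and Cebpa d/d 0 hr (6.26) came first, and the 72 hr groups (5.44 and 5.43) last, with overlap between neighbours except at the step to 72 hr.

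Cyp1b1, another Ah receptor target, active on polycyclic hydrocarbons and oestrogens, passed in none of the comparisons in the fit of all genes to all 18 arrays with equal weights. It passed at 72 hr in control mice under several alternatives. Its control arrays read 8.61, 8.85 and 8.38 at 0 hr, 8.74, 8.35 and 8.33 at 3 hr, and 7.66, 7.74 and 7.53 at 72 hr. The 72 hr arrays lay below all earlier ones, with a difference from 0 hr of -0.97 ± 0.29 (adjusted p = 0.0575) and from 3 hr of -0.83 ± 0.29 (adjusted p = 0.0571). Among Cebpa d/d arrays it read 7.92, 8.68 and 8.35 at 0 hr, 8.44, 8.19 and 8.49 at 3 hr, and 8.46, 6.77 and 7.37 at 72 hr. The last group had the widest spread of any member in any group (SD of 0.86), between replicate 1 at the earlier level and replicate 2 at the lowest value of the gene. Without replicate 1 the Cebpa d/d difference from 0 hr was -1.25 ± 0.21 (adjusted p = 0.00185), and the control difference, then judged against a smaller pooled spread, had an adjusted p of 0.00471. With all 18 arrays the control difference from 0 hr passed with array weights (-0.82 ± 0.24, adjusted p = 0.0271) and when weak genes were left out (adjusted p = 0.0404), and with the 6 arrays of the comparison alone the adjusted p was 0.00541. The difference from 3 hr passed likewise (adjusted p = 0.0389, 0.0455 and 0.00697). Neighbouring group means overlapped except between Cebpa d/d 0 hr (8.32) and control 72 hr (7.65).

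Cyp2s1, an airway and epithelial P450 of which the physiological substrates are less settled, rose to 72 hr. Control arrays read 9.35, 9.64 and 9.62 at 0 hr, 9.40, 9.22 and 8.52 at 3 hr, and 9.82, 10.25 and 10.13 at 72 hr. The 72 hr arrays were the highest, and Cyp2s1 rose by 1.02 ± 0.19 from 3 hr (2.03-fold, adjusted p = 0.00192), where the difference from 0 hr was 0.53 ± 0.19 (adjusted p = 0.116). Cebpa d/d arrays read 8.67, 8.83 and 9.07 at 0 hr, 9.21, 9.33 and 9.07 at 3 hr, and 9.43, 9.87 and 9.96 at 72 hr. Here the 0 hr arrays were the lowest group, and Cyp2s1 rose by 0.89 ± 0.19 from 0 hr (1.86-fold, adjusted p = 0.0123). That call was lost with sex as a covariate (adjusted p = 0.0553) and when 0 hr replicate 1, 72 hr replicate 2 or 72 hr replicate 3 of Cebpa d/d was left out, with an adjusted p of up to 0.072. Without 72 hr replicate 1 the rise was 1.05 ± 0.20 (adjusted p = 0.00491). The group means ran from 10.07 in control 72 hr arrays to 8.86 in Cebpa d/d 0 hr arrays, and neighbours overlapped except control 0 hr (9.54) and Cebpa d/d 3 hr (9.20).

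**Figure D2:**
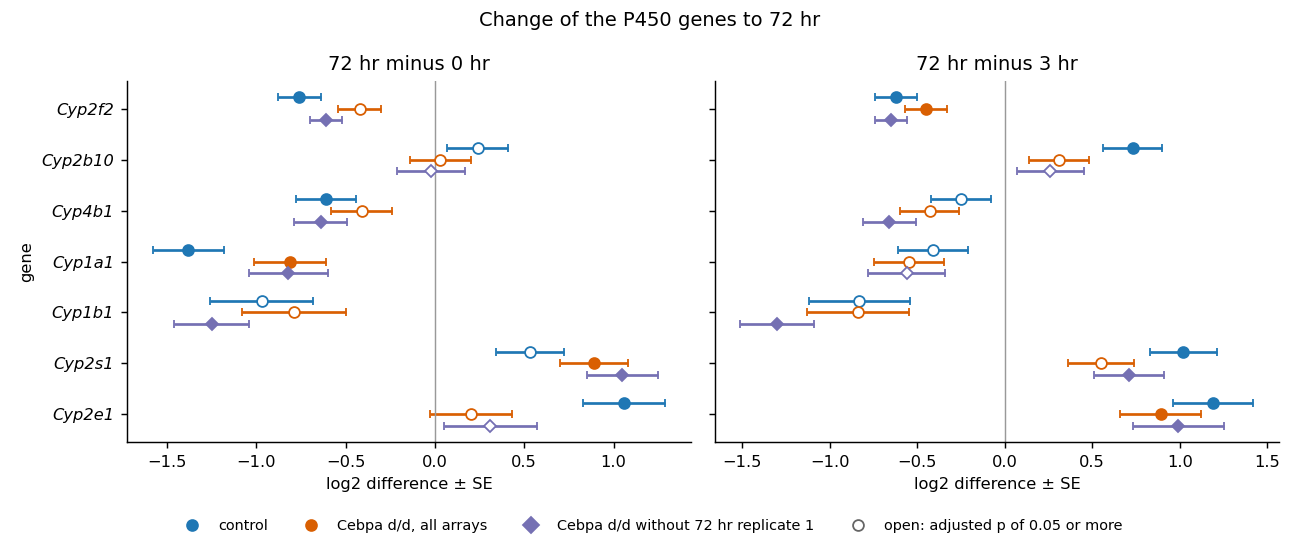
Change to 72 hr of each P450 gene (y axis) as a log2 difference with its SE (x axis), from 0 hr on the left and from 3 hr on the right, in control mice, Cebpa d/d mice, and Cebpa d/d mice without 72 hr replicate 1; open symbols did not pass. Leaving that array out moves Cyp2f2 from -0.42 to -0.61 and Cyp1b1 from -0.79 to -1.25 against 0 hr, and leaves Cyp1a1 at -0.82.

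Replicate 1 of Cebpa d/d at 72 hr lay apart from the other 72 hr arrays in 5 of 7 members. For Cyp2f2 (13.11 against 12.41 to 12.62 in the other 5 arrays of 72 hr), Cyp4b1 (10.63 against 9.85 to 10.08) and Cyp1b1 (8.46 against 6.77 to 7.74) it read at the level of the Cebpa d/d arrays of 0 and 3 hr. Cyp1a1, at 5.46, lay inside the range of the other 72 hr arrays (5.26 to 5.55) and below all Cebpa d/d arrays of 0 and 3 hr (5.78 to 6.43). Cyp2b10, at 10.15, lay inside both ranges (9.94 to 10.75 and 9.67 to 10.23). Cyp2s1 at 9.43 lay between the earlier arrays (8.67 to 9.33) and the other 72 hr arrays (9.82 to 10.25). Cyp2e1 at 7.29 lay below the other 72 hr arrays (7.42 to 7.74) and inside the earlier ones (6.25 to 7.50). Markers of cycling cells in this array were between the earlier and the other 72 hr arrays: Mki67 read 7.68, against 6.10 to 6.82 earlier and 8.33 to 8.71 in the others. Its mean over 14 club cell markers was 11.13, against 10.32 to 10.52 in the other 72 hr arrays, while Scgb1a1, at 12.55, was lower than in any other array. This array was singled out partly by its P450 values. Calls gained by leaving it out, here and above, are therefore not independent support for a change. Without this array 5 of 7 members passed in Cebpa d/d mice from 0 to 72 hr, and 5 of 7 from 3 to 72 hr. In control mice 5 passed in each of the same comparisons, Cyp1b1 being the addition. Without control 0 hr replicate 1 the count from 0 to 72 hr in control mice was 3, and Cyp4b1 was the member lost (-0.51 ± 0.19, adjusted p = 0.119). With both arrays left out the counts were 5 of 7 in all 4 comparisons with 72 hr. The share of all genes that passed in these smaller fits is not given here. The counts therefore do not show a change particular to the members.

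**Figure D3:**
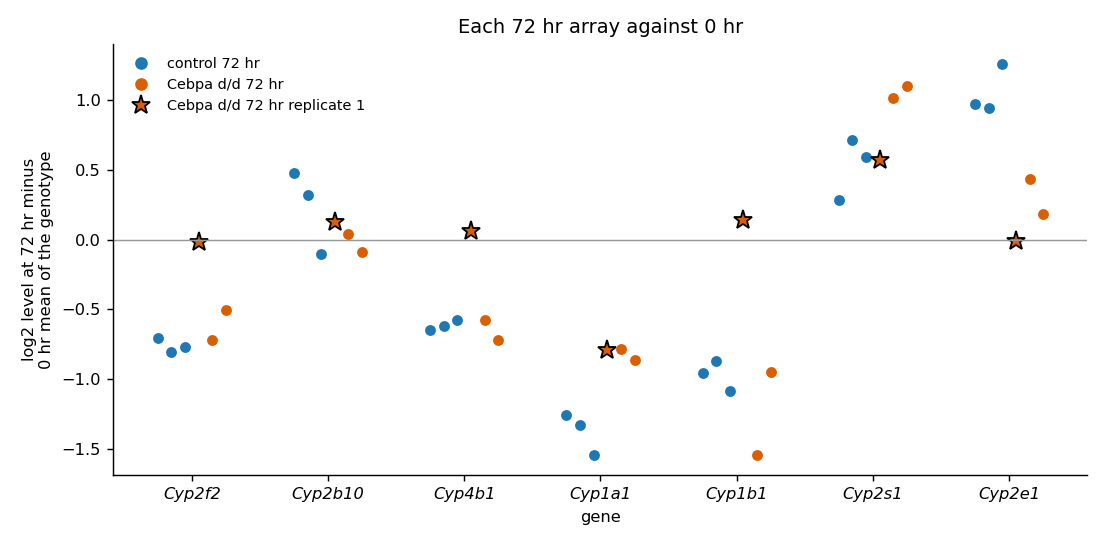
Level of each P450 gene in the 6 arrays of 72 hr (points) minus the 0 hr mean of the same genotype, on the log2 scale (y axis), by gene (x axis). The star, Cebpa d/d 72 hr replicate 1, lies near 0 for Cyp2f2, Cyp4b1 and Cyp1b1 and beside the other Cebpa d/d arrays for Cyp1a1 (5.46, 5.47 and 5.39).

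Comparing the genotypes asks whether the altered Cebpa gene changed the P450 enzymes at rest or in the injured airway. None of the 7 members passed in limma at 0 hr (where 0.336% of all genes passed), at 3 hr (0.0150%), at 72 hr (0.0702%) or as a mean over the 3 times (0.306%). Cebpa itself passed only as that mean, so that a miss at a single time does not show the genotypes to be equal. At an unadjusted p under 0.05 the members numbered 3, 0, 1 and 3 of 7, and the share of all genes was 8.53%, 5.02%, 6.31% and 8.57%. The largest differences were at 0 hr. Cyp2e1 was 7.50, 7.44 and 6.97 in Cebpa d/d arrays and 6.95, 6.52 and 5.96 in control arrays, a difference of 0.83 ± 0.23 (limma, adjusted p = 0.214). Cyp2s1 was 8.67, 8.83 and 9.07 against 9.35, 9.64 and 9.62, a difference of -0.68 ± 0.19 (limma, adjusted p = 0.224). For both genes the genotypes did not overlap, though the nearest Cyp2e1 arrays read 6.97 and 6.95. Cyp2f2 did not overlap at 0 hr either (13.04, 13.18 and 13.16 against 13.31, 13.22 and 13.23). The share of all genes without overlap is not given here, so these separations do not mark out the members. Without control 0 hr replicate 1, the library with the low Cebpa value, Cyp2e1 differed by 1.06 ± 0.23 and passed (adjusted p = 0.0447), and Cyp2s1 by -0.77 ± 0.22 (adjusted p = 0.137). At the same time the ciliated cell markers averaged 8.70 to 8.89 in Cebpa d/d and 9.03 to 9.52 in control arrays, and cardiac muscle markers 10.46 to 11.36 and 8.05 to 9.68. Of 13 ciliated markers 9 had an unadjusted p under 0.05 and 0 passed, and of 8 cardiac markers 4 passed; the part of either in the P450 values was not tested. Cyp2f2 differed by -0.12 ± 0.12 at 0 hr, 0.05 ± 0.12 at 3 hr and 0.22 ± 0.12 at 72 hr, which gives adjusted p values of 0.851, 0.99 and 0.826. Cyp2b10 at 72 hr was lower in all Cebpa d/d arrays (9.94 to 10.15) than in all control arrays (10.17 to 10.75), and the difference of -0.45 ± 0.17 did not pass (adjusted p = 0.719).

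The interactions, which take the change over time in Cebpa d/d mice less that in control mice, passed for 0 of 7 members in limma. From 0 to 3 hr 2 members had an unadjusted p under 0.05, Cyp2s1 (0.83 ± 0.28, adjusted p = 0.62) and Cyp1a1 (0.70 ± 0.28, adjusted p = 0.708), and 0% of all genes passed, although 1365 had an unadjusted p under 0.05. From 0 to 72 hr 1 member did, Cyp2e1 (-0.86 ± 0.33, adjusted p = 0.983), with 0.0953% of all genes passing and 4.47% at an unadjusted p under 0.05. A call from 0 hr in 1 genotype and none in the other therefore was not shown to be a difference between the genotypes. This holds for Cyp2f2, Cyp4b1, Cyp2e1 and Cyp2s1 to 72 hr and for Cyp1a1 to 3 hr. Cyp2b10 and Cyp2s1 passed from 3 to 72 hr in control mice alone, and no interaction was fitted for that interval.

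The members varied together in sets across the 18 arrays. These correlations describe arrays that share time, genotype and platform. Cyp2f2 and Cyp1b1 had a Pearson correlation of 0.90, and of 0.91 after group means were taken away. Cyp2f2 and Cyp4b1 had 0.85 and 0.77, and Cyp4b1 and Cyp1b1 0.76 and 0.65. Without Cebpa d/d 72 hr replicate 1 the correlations over the arrays left were 0.90, 0.85 and 0.76. Within groups they were not recomputed without it, and the within-group values lean on the Cebpa d/d 72 hr group. Its SD was 0.36 for Cyp2f2, 0.41 for Cyp4b1 and 0.86 for Cyp1b1, the widest of each gene. Cyp1a1 also fell over time, but its correlation with Cyp2f2 went from 0.67 over all arrays to -0.12 within groups. Cyp2s1 ran opposite to Cyp2f2, at -0.70 over all arrays and -0.31 within groups. Within groups, no pair other than those of Cyp2f2, Cyp4b1 and Cyp1b1 exceeded the 0.37 of Cyp2b10 and Cyp1a1.

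The genes most like each member differed by member. For Cyp2f2 they were Elapor1 (0.986), Scnn1b (0.972), a subunit of the epithelial sodium channel, Slc4a5 (0.971), a bicarbonate transporter, Ces1e (0.969), a carboxylesterase, and the secretoglobin Scgb1c1 (0.966). For Cyp4b1 they were Aldh2 (0.947), the mitochondrial aldehyde dehydrogenase, Norad (0.906) and Mob3b (0.902). For Cyp1b1 they were Cbr2 (0.944), a carbonyl reductase of club cells, Mgst1 (0.937), a microsomal glutathione transferase, and Ppp2r2b (0.912). For Cyp2s1 they were Iqcg (0.975), Cfap45 (0.964) and Dnah5 (0.960), all genes of motile cilia. For Cyp2e1 they were Uqcrh (0.926) and Atp5o (0.884), of the respiratory chain and ATP synthase, and Decr1 (0.902), of mitochondrial fatty acid oxidation. For Cyp2b10 they were Gchfr (0.878), Etfbkmt (0.878) and 1810064F22Rik (0.853), and for Cyp1a1 Nyx (0.864), Olfr1225 (0.849) and Vezf1 (0.843). Within groups the correlation of Vezf1 with Cyp1a1 was 0.267.

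Cell type markers moved along with the P450 genes, and their part in the P450 changes was not tested. The mean of 14 club cell markers went from 11.01 to 11.19 in control arrays at 0 hr to 10.32 to 10.52 at 72 hr, and 4 of the 14 fell. Scgb1a1 itself read 12.66 to 12.79 at 0 hr and 12.71 to 12.79 at 72 hr in control mice. Cyp2f2 correlated with the club cell mean at 0.89 over 18 arrays, at 0.81 within groups and at 0.83 without the 2 arrays farthest from the median of that mean. Cyp4b1 did at 0.88, and 0.76 within groups, and Cyp1b1 at 0.80 and 0.74. Most of the within-group scatter of Cyp2f2 and Cyp1b1 came from Cebpa d/d 72 hr arrays, where replicate 1 stood apart. There the SD of Cyp2f2 was 0.36, against 0.05 to 0.07 in the other groups. That replicate was kept when the 2 farthest arrays were left out, and within-group values without it were not computed. The mean of 13 ciliated cell markers was 8.66 to 9.39 in control arrays at 3 hr and 9.67 to 9.91 at 72 hr, and 11 of the 13 rose. Among Cebpa d/d arrays it was 8.70 to 8.89 at 0 hr and 9.51 to 9.58 at 72 hr, and 9 rose. Cyp2s1 correlated with it at 0.95 over all arrays, 0.80 within groups and 0.93 without the 2 farthest arrays. Proliferation markers rose in 5 of 5 cases in both genotypes by 72 hr, and endothelial markers fell in 6 of 10 in control and 3 of 10 in Cebpa d/d mice from 0 to 72 hr. From 3 to 72 hr in control mice, when Cyp2b10, Cyp2s1 and Cyp2e1 rose, 5 of 9 alveolar type 2 markers and 5 of 8 fibroblast markers rose too. Macrophage markers rose in 3 of 7 in control mice from 0 to 72 hr and 0 of 7 in Cebpa d/d mice. In the latter 1 had an unadjusted p under 0.05 in limma, as had 17.5% of all genes. Over all genes 7.15% passed from 0 to 72 hr and 19.7% from 3 to 72 hr in control mice. In Cebpa d/d mice 4.80% passed from 0 to 72 hr.

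**Figure D4:**
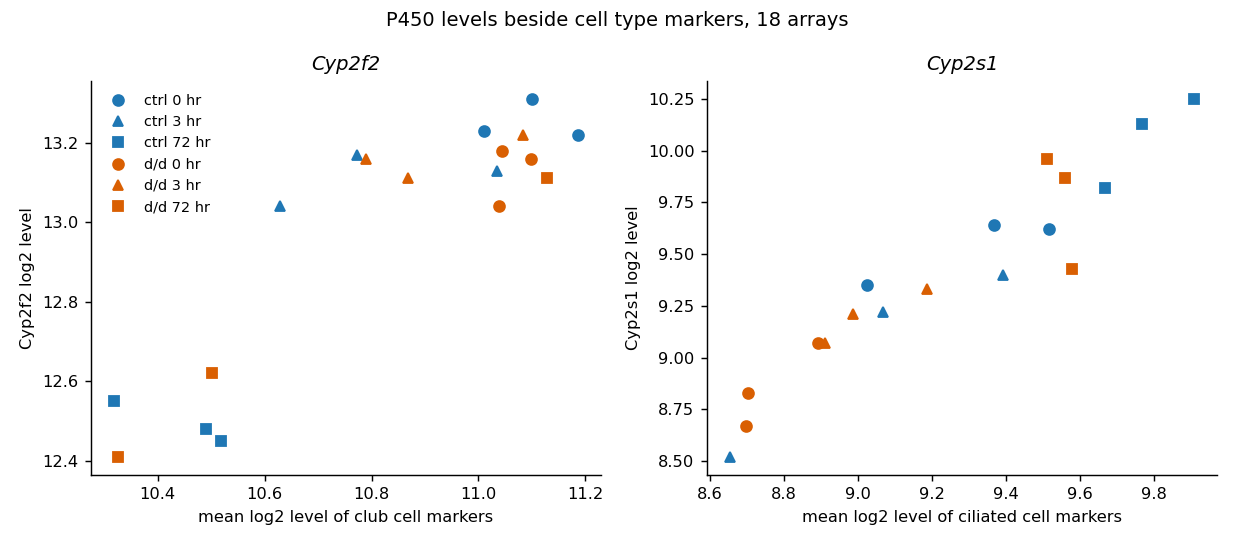
Level of Cyp2f2 against the mean of 14 club cell markers (left) and of Cyp2s1 against the mean of 13 ciliated cell markers (right), all on the log2 scale, 1 point per array, 18 arrays. Cyp2f2 is low where the club cell mean is low, and Cyp2s1 rises with the ciliated mean from 8.52 to 10.25.

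Genes that work with the P450 enzymes were followed on fixed lists. Of 8 electron donors and their helpers, 6 were measured. From 3 to 72 hr in control mice 3 passed: Cyb5a, the cytochrome b5 that donates electrons to P450 enzymes, fell by 0.74 ± 0.16 (adjusted p = 0.00452), Pgrmc1 fell by 0.55 ± 0.15 and Cyb5r3, the reductase of cytochrome b5, rose by 0.66 ± 0.15. The list's median was -0.14, and that of all genes -0.07. Cebpa d/d mice showed 2 of 6 (33.3%, beside 8.55% of all genes): Cyb5a fell by 0.64 ± 0.16 (adjusted p = 0.0208) and Pgrmc1 by 0.53 ± 0.15. Of 9 measured genes of haem synthesis, 2 passed from 3 to 72 hr in each genotype, Urod upward (0.56 ± 0.12 in control, 0.44 ± 0.12 in Cebpa d/d) and Slc25a38 downward (-0.31 ± 0.09 and -0.35 ± 0.09). That is 22.2% of the list, beside 19.7% of all genes in control and 8.55% in Cebpa d/d mice. In Cebpa d/d mice the Urod call was lost in 5 of 18 fits that each left out 1 array and the Slc25a38, Cyb5a and Pgrmc1 calls in 4. Hmox1, which breaks haem down and responds to oxidative stress, rose at 3 hr. It read 8.17, 7.82 and 8.14 in control arrays at 0 hr, 12.15, 12.14 and 11.72 at 3 hr, and 7.85, 7.79 and 7.85 at 72 hr. It rose by 3.96 ± 0.15 by 3 hr in control and by 4.29 ± 0.15 in Cebpa d/d mice (adjusted p = 1.74e-10 and 4.75e-11). Of 4 haem breakdown genes it alone passed from 0 to 3 hr in either genotype.

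The Ah receptor list held 13 genes, of which 11 were measured, Cyp1a1 and Cyp1b1 among them. From 0 to 3 hr in control mice 1 rose and 1 fell, in opposite directions within the list: Nqo1, a quinone reductase that is also an NRF2 target, rose by 1.45 ± 0.21 (adjusted p = 0.0013) while Cyp1a1 fell. With the d/d allele Nqo1 rose by 1.06 ± 0.21 and Nfe2l2, which encodes NRF2, by 0.55 ± 0.14. In each genotype 2 of 11 passed (18.2%), beside 3.50% of all genes in control and 4.38% in Cebpa d/d mice. From 3 to 72 hr in control mice 3 fell: Nqo1 by 1.93 ± 0.21, the receptor gene Ahr by 0.63 ± 0.14 (adjusted p = 0.00476) and Cyp1a2 by 0.30 ± 0.10. The 3 are 27.3% of the 11 measured, beside 19.7% of all genes. The Cyp1a2 call was lost in 12 of the 18 fits that left out 1 array, and that of Nfe2l2 in 5. The receptor's repressor, Ahrr, read 4.63 to 4.99 in all arrays. The list's medians were 0.17 from 0 to 3 hr and -0.30 from 3 to 72 hr in control mice, against 0.03 and -0.07 for all genes. Of 13 genes of the CAR and PXR list, which regulates drug metabolism in liver, 1 passed in any of the 6 comparisons over time, and it was the member Cyp2b10. That is 7.69% of the list from 3 to 72 hr in control mice, beside 19.7% of all genes.

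The conjugation genes, which dispose of the naphthalene epoxide, held members that rose by 3 hr and members that fell by 72 hr. Of 14, 3 rose from 0 to 3 hr in control and 4 in Cebpa d/d mice. Gclc and Gclm, the subunits of the enzyme that limits glutathione synthesis, rose by 2.12 ± 0.18 and 1.89 ± 0.14 in control and by 1.93 ± 0.18 and 2.08 ± 0.14 in Cebpa d/d mice, and the glutathione transferase Gstp1 by 1.06 ± 0.22 and 1.03 ± 0.22. Between 3 and 72 hr 2 rose and 9 fell in control mice, with a median of -0.76, and 1 rose and 7 fell in Cebpa d/d mice, with a median of -0.65. From 0 to 72 hr in control mice 2 rose and 4 fell. Among those that fell were Gsta3 (-1.52 ± 0.26, adjusted p = 0.00254), the airway glutathione transferase, the microsomal epoxide hydrolase Ephx1 (-0.96 ± 0.19) and Gstm1 (-0.74 ± 0.14). Gsta3 read 11.52, 11.48 and 11.52 at 0 hr and 10.13, 10.16 and 9.67 at 72 hr, so that it fell with Cyp2f2 in the same arrays. The Cebpa d/d mice had 1 that rose, Gsto1 by 0.76 ± 0.20, and 1 fell, Gsta3 by 1.09 ± 0.26 (adjusted p = 0.0211), and each call was lost in 5 of the 18 fits that left out 1 array. Gsta3 was 11.18 in replicate 1 at 72 hr and 9.84 and 9.85 in the others, the same division as for Cyp2f2. Over all genes 3.50% passed from 0 to 3 hr in control and 4.38% in Cebpa d/d mice. From 3 to 72 hr the shares were 19.7% and 8.55%, and from 0 to 72 hr 7.15% and 4.80%.

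Among the 75 other P450 genes, 17 passed at least 1 comparison and 58 passed none. Of all genes 26.3% passed at least 1, and of the members 6 of 7. The other P450 genes averaged 5.15 to 5.39 per array, below the array medians, and a change in a gene at background cannot be read from these values. From 0 to 72 hr in control mice 2 of 75 passed (2.67%, beside 7.15% of all genes). Cyp4f15, of a subfamily that hydroxylates leukotrienes and fatty acids, read 8.67 or more in all 3 arrays at 0 hr and 7.04, 6.64 and 6.71 at 72 hr, and fell by 1.99 ± 0.35 (adjusted p = 0.00307). The Cebpa d/d arrays read 8.98, 7.04 and 7.21 at 72 hr, with replicate 1 apart as for Cyp2f2, and the difference from 0 hr did not pass (adjusted p = 0.127). Cyp7b1, an oxysterol hydroxylase, rose in control mice from 7.29, 6.39 and 6.72 at 0 hr to 7.77, 7.64 and 7.99 at 72 hr (adjusted p = 0.028). At 3 hr Cyp2j9, an arachidonic acid epoxygenase, fell in both genotypes, by 0.87 ± 0.19 in control (adjusted p = 0.0195) and 0.77 ± 0.19 in Cebpa d/d mice (adjusted p = 0.0261). It read 7.48, 7.12 and 7.31 in control arrays at 0 hr, 6.59, 6.03 and 6.69 at 3 hr, and 7.19, 6.99 and 7.41 at 72 hr. Cyp2c54 fell in Cebpa d/d mice by 0.47 ± 0.09 at 3 hr and 0.46 ± 0.09 at 72 hr, and Cyp4f39 rose there at 3 hr by 0.65 ± 0.15.

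From 3 to 72 hr in control mice 3 of the 75 rose and 11 fell, with a median of -0.13 against -0.07 for all genes. These 14 are 18.7% of the list, near the 19.7% of all genes. Cyp2j9 (0.76 ± 0.19), Cyp4f13 (0.40 ± 0.11) and Cyp27a1 (0.46 ± 0.14), the mitochondrial sterol hydroxylase, were those that rose. Those that fell included Cyp4f15 (-1.58 ± 0.35), Cyp4a10 (-0.98 ± 0.20), a fatty acid hydroxylase, Cyp3a57 (-0.72 ± 0.20), Cyp4f39 (-0.50 ± 0.15), Cyp2c37 (-0.46 ± 0.14), Cyp8b1 (-0.45 ± 0.10) and Cyp2t4 (-0.41 ± 0.11). Among Cebpa d/d arrays 1 rose, Cyp4f18 (0.33 ± 0.09), and 3 fell, Cyp4a10 (-0.78 ± 0.20), Cyp4f39 (-0.62 ± 0.15) and Cyp3a57 (-0.70 ± 0.20). These are 5.33% of the list, beside 8.55% of all genes. Of 20 calls of the named other P450 genes, 6 were kept whichever array was left out: Cyp4f15 from 0 and from 3 to 72 hr, and Cyp4a10 and Cyp8b1 from 3 to 72 hr, in control mice, and both calls of Cyp2c54 in Cebpa d/d mice. The other 14 were lost without at least 1 array of 18. Cyp4f18 was not among the genes of these 20 calls, and its call was lost in 5 fits (limma, adjusted p up to 0.134). Cyp3a57 in Cebpa d/d mice was lost in 9 fits, with an adjusted p of up to 0.182. Cyp7b1 was lost without any 1 of 5 arrays, control 0 hr replicates 2 and 3 and all control 72 hr arrays (adjusted p up to 0.126). The 3 hr call of Cyp2j9 in Cebpa d/d mice was lost without any 0 hr array or 3 hr replicate 1 or 2 (up to 0.0876), and that of Cyp27a1 without control 3 hr replicate 2 or 3 or any control 72 hr array (up to 0.113). The other P450 genes passed in 0 of 75 cases in each genotype comparison in limma, with 7, 3 and 7 at an unadjusted p under 0.05 at 0, 3 and 72 hr. The shares of all genes at that unadjusted threshold were 8.53%, 5.02% and 6.31%.

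**Figure D5:**
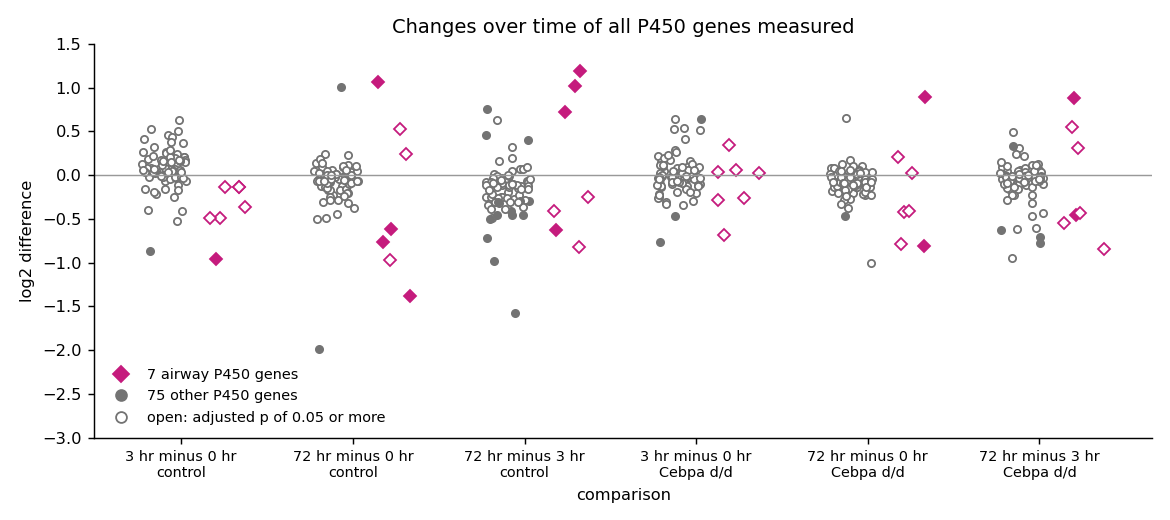
Log2 difference (y axis) of the 7 airway P450 genes (diamonds) and 75 other P450 genes (circles) in the 6 comparisons over time (x axis); filled symbols passed at an adjusted p under 0.05. In control mice from 0 to 72 hr, 4 of 7 airway genes and 2 of 75 others passed.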

How the data were processed

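The deposited values are log2 expression levels, and RMA is the method that the submitters' processing notes name for them. RMA subtracts background, quantile normalises arrays and summarises probes, so that a level is relative within its array set. Of 35557 probe sets, 21789 had 1 symbol in the platform annotation, 1621 several and 12147 none, and only the first were used. Of several probe sets for a gene, the brightest on average was used, giving 19938 genes. Levels of different probe sets were compared only to place a gene as high or low on the arrays, and not as amounts of RNA. Precision is limited by there being 3 arrays per group. Library preparation beyond GITC extraction and biotin label was not used here.

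Groups came from the labels. A limma 3.58.1 fit (R 4.3.3) of 6 group means to 18 arrays gave 12 contrasts with 12 residual and 4.49 prior degrees of freedom. The Benjamini-Hochberg adjustment ran over all genes within a contrast, with 0.05 as threshold, and a gene rose or fell only if it passed. The fit was tested on simulated data. Alternatives were a filter on low levels, the mean of probe sets, a variance trend with robust moderation, array weights, a replicate block, only the groups compared, median centring, a sex covariate, 2 arrays left out, and each array left out. Members and lists were chosen with earlier results of these data known. Named were the members, Cebpa, up to 12 other P450 genes that passed by smallest adjusted p, up to 3 passing members per list and contrast, and the 3 (for Cyp2f2, 5) most correlated genes. Other named genes (Scgb1a1, Xist, Ahrr, Mki67) were chosen as checks or after their values were seen. Same-numbered arrays did not pair: 45 pairs had residual correlations of -0.288 to 0.199, and 7 were over 0.1. Upstream sequences came from RefSeq (GRCm38.p6).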

Additional observations from a re-analysis of the deposited data

How the results depend on the processing

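Of 13 member differences that passed, 6 did so under every alternative that tested the gene (the low-level filter left out Cyp1a1): Cyp1a1 and Cyp2f2 from 0 to 72 hr, and Cyp2f2, Cyp2b10, Cyp2s1 and Cyp2e1 from 3 to 72 hr, all in control mice. In 2256 recomputed member values, 33 lost a call, 44 gained one, 0 calls changed direction and 39 uncalled values changed sign. Members called at 0 hr between genotypes numbered 2 with array weights, in place of 0. The number was 1 without 2 arrays, the control 0 hr array of low Cebpa level and replicate 1 of Cebpa d/d 72 hr. On Cebpa that replicate, at 9.07, lay inside the range of the other 72 hr arrays (7.90 to 9.87). It was singled out partly by its P450 values. From 0 to 3 hr in control mice the count was 0 when genes below the median level were left out, which left 6 members tested, and 0 with only the groups compared, in place of 1. From 0 to 72 hr in Cebpa d/d mice, in place of 2, it was 1 with the low-level filter, 5 with array weights, 0 with sex as a covariate and 5 without both arrays. From 3 to 72 hr in Cebpa d/d mice, in place of 2, it was 6, 1 and 5 with array weights, sex and both arrays out. Leaving out each array in turn gave 0 to 1 at 0 hr between genotypes, 0 to 2 from 0 to 3 hr, 2 to 5 from 0 to 72 hr and 4 to 5 from 3 to 72 hr in control mice, and 0 to 5 in both comparisons with 72 hr in Cebpa d/d mice; the other counts stayed at 0. The replicate block, run although the numbers were not found to pair the arrays, changed 0 member calls. Beyond the filter and the smaller fits, the cause of these changes was not tested. The share of all genes that passed under each alternative is not given beside these counts. Signal over background was not analysed here, so that Cyp1a1 and the weak P450 genes may lie near the floor of the platform.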

Other observations

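Some probe sets carry a P450 symbol together with others, in 6 of 7 cases of other P450 genes and in 1 of Klkb1, and these 7 were left out above. Fitted with the same model, 3 of the 7 passed in at least 1 comparison; they were looked at after the other values were known. The probe set for Cyp2a5 and Cyp2a4, of which the first encodes an airway and liver enzyme that oxidises nicotine and coumarin, rose in control mice from 0 to 3 hr by 1.05 ± 0.27 (limma, adjusted p = 0.0456), when Cyp1a1 fell. In Cebpa d/d mice the difference was 0.58 ± 0.27 (adjusted p = 0.288). The probe set for Cyp4a32, Cyp4a31 and Cyp4a10 rose by 0.59 ± 0.12 from 0 to 3 hr in control mice (adjusted p = 0.0167) and fell by 0.58 ± 0.12 from 3 to 72 hr (adjusted p = 0.00364). In Cebpa d/d mice it differed by 0.37 ± 0.12 (adjusted p = 0.0976) and fell by 0.50 ± 0.12 (adjusted p = 0.0171) in the same intervals. The probe set for Cyp3a59, Cyp3a57 and Cyp3a25 fell by 0.34 ± 0.10 from 3 to 72 hr in Cebpa d/d mice (adjusted p = 0.0477), and differed by -0.29 ± 0.10 in control mice (adjusted p = 0.0544). Which of the genes named for a probe set gave its signal cannot be told apart.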
